A study of Mus musculus with 8 samples.

Results

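Elastic fibres give the wall of the colon its recoil, and 10 genes that build and crosslink them were followed through 8 RNA sequencing libraries of sorted mesenchymal cells of the mouse colon and large intestine. The genes were taken by symbol: elastin (Eln), the microfibril genes Fbn1 and Mfap5, the assembly and linker genes Fbln1, Fbln2, Fbln5 and Emilin1, and the lysyl oxidase genes Lox, Loxl1 and Loxl2. All 10 were found among 24346 listed genes, and all 10 passed the filter on low values in each comparison. An elastic fibre has an elastin core laid on a scaffold of fibrillin microfibrils. Fibulins and emilins link the core to the scaffold and to cells, and lysyl oxidases, copper enzymes that oxidise lysines, crosslink elastin and collagen. In the gut these fibres are made mainly by smooth muscle cells and fibroblasts.

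The sorting gate, per the labels, kept gp38-positive cells with high PDGFRα and without Ly6C, after cells with CD45, EpCAM or CD31 had been removed. Cells of C57BL/6 mice treated with 1 mM GABA and 20 mM taurine gave 3 libraries at 6 h and 3 at 0 h. Untreated cells of mice with Foxl1-Cre and floxed Cxcl12 (Foxl1cre; Cxcl12 flox/flox) gave 1 library, and cells of Cxcl12 flox/flox mice without Cre gave 1 control library. All libraries came from the large intestine, and both genotype libraries carry the floxed allele. Foxl1-Cre acts where the Foxl1 promoter is active, and how many of the sorted cells it reached was not analysed here. Ages of the mice, pooling of animals and any culture before treatment were not given by the labels. No untreated 6 h library was analysed here, so time and treatment cannot be told apart. Whether the 3 replicates of a time came from separate animals or cultures is not labelled, and each p-value covers no more than their spread, part or all of which may be technical.

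Values are FPKM (fragments per length of transcript and per size of library), a unit that allows levels of different genes to be set side by side. Total FPKM ran from 550914 to 558183 at 6 h and from 552777 to 579004 at 0 h, and was 528318 in the Foxl1-Cre and 513001 in the control library. Read numbers are unknown, so no counting intervals are given. Steps among low values put the Foxl1-Cre library at about 1.25 times the control library in depth. They put the other 5 GABA and taurine libraries at 0.821 to 0.959 of 0 h replicate 1. Only 7.6% to 9.6% of low genes lay at the step used for those 5, against 24% for the Foxl1-Cre library, so these depths are rough. Cxcl12 stood at 739.7 FPKM in the Foxl1-Cre library and at 1298 FPKM in the control library. Against the labelled cell type, Pdgfra was high in all 8 libraries, at 152.3 to 227.3 FPKM in the GABA and taurine libraries and at 225.7 and 201.8 FPKM in the Foxl1-Cre and control libraries. Pdpn, which encodes gp38, stood at 280.7 to 303.7 FPKM in the GABA and taurine libraries and at 91.7 and 96.1 FPKM in the Foxl1-Cre and control libraries. Foxl1 was at 0.109 to 0.289 FPKM in the GABA and taurine libraries, against 11.6 and 10.2 FPKM in the Foxl1-Cre and control libraries. Ly6c1, a gene of the Ly6C that the gate excluded, was at 8.76 to 12.4 FPKM in the GABA and taurine libraries and at 89.6 and 140.9 FPKM in the Foxl1-Cre and control libraries.

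The 10 genes lie on 8 chromosomes and all are protein-coding (GRCm38, GENCODE annotation). Eln lies on chromosome 5 from 134702593 to 134747323 (minus strand), with Emilin1 on the same chromosome from 30913402 to 30921277 (plus strand). Fbn1 lies on chromosome 2 from 125300594 to 125507993 (minus strand). Mfap5 lies on chromosome 6 from 122505845 to 122529290 and Fbln2 on chromosome 6 from 91212455 to 91272540, both on the plus strand. Fbln1 lies on chromosome 15 from 85205949 to 85286535 (plus strand) and Fbln5 on chromosome 12 from 101746565 to 101819055 (minus strand). Lox lies on chromosome 18 from 52516067 to 52529867 (minus strand), Loxl1 on chromosome 9 from 58287738 to 58313186 (minus strand) and Loxl2 on chromosome 14 from 69609068 to 69695834 (plus strand). The library kit does not mark strand. Exons of Fbn1, Eln, Lox and Loxl2 each overlap those of 1 annotated gene on the other strand, so reads of both strands cannot be told apart there.

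The main pattern among these genes was a difference between the 2 sets of libraries. Eln, Fbln1, Fbln5 and Emilin1 averaged more than 10-fold lower in the 6 GABA and taurine libraries than in the 2 genotype libraries, while Lox and Fbln2 stood higher. Of the 10 genes, 7 were at least 2-fold lower and 2 at least 2-fold higher on the log2(FPKM + 1) scale with no overlap between the sets. Among all 12043 genes averaging 1 FPKM or more over the libraries, 41.7% met this rule, 21.9% as lower and 19.8% as higher. All 10 were without overlap at any size, as were 79.1% of all genes. Among the 6435 genes with at least 10 FPKM in the genotype libraries, which have more room to be lower, 22.8% were lower by this rule. No test was made between the sets, which differ in mouse line and treatment and may have been handled and normalised separately. Of the 6 GABA and taurine libraries, 3 are labelled 0 h. Against the control library alone, the median log2 difference of the 10 genes was -1.93 for the 0 h and -1.93 for the 6 h libraries. That of Eln was -5.77 for the 0 h and -5.46 for the 6 h libraries. In bulk samples like these, fewer cells of a type and less RNA per cell cannot be told apart.

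**Figure D1:**
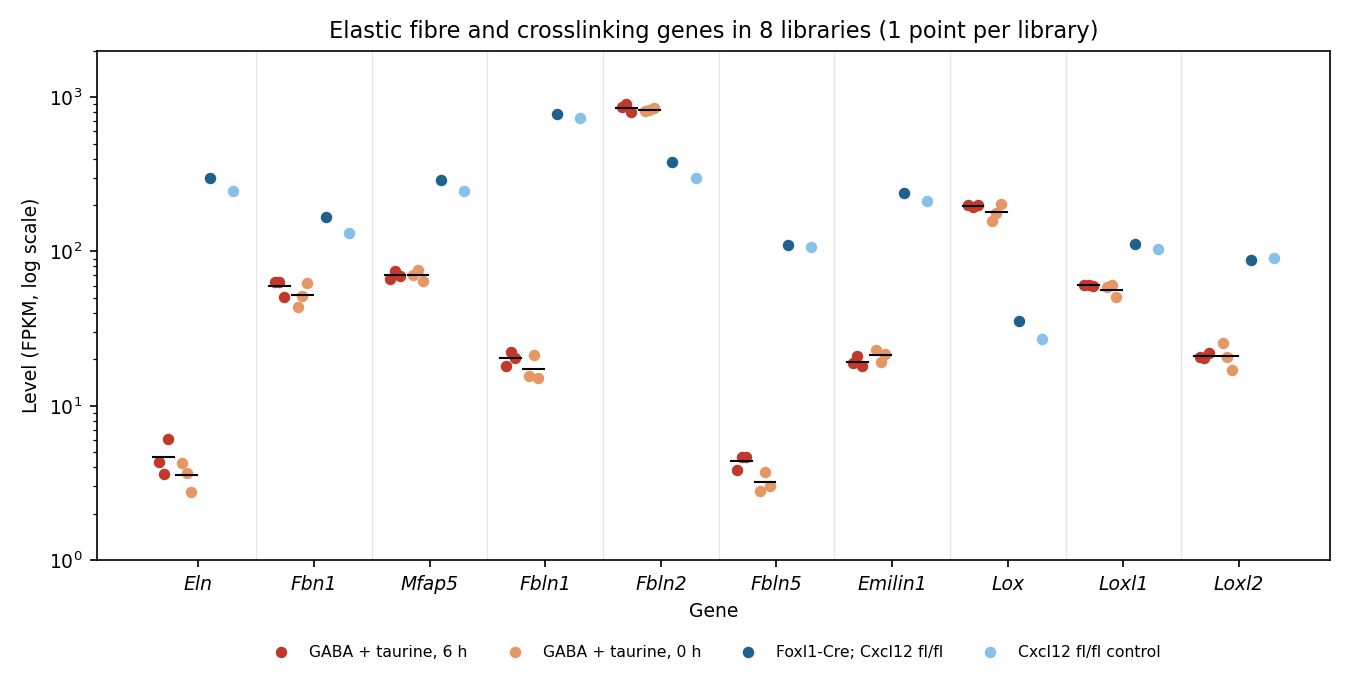
Level of each gene in FPKM on a log axis, with 1 point per library and a black bar at the mean of the 3 libraries of each time. Eln, Fbln1, Fbln5 and Emilin1 sit far lower in the GABA and taurine libraries than in the genotype libraries, Lox and Fbln2 sit higher, and the 6 h and 0 h points lie close together.

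Fbln1 and Fbln5, a pair of fibulins that both stood over 20-fold lower in the GABA and taurine libraries, are shown here by the 250 bases before their first RefSeq start (GRCm38.p6, each on its gene's strand), as the regions from which their transcription starts. Capitals mark matches on either strand to 1 of 4 motifs. The GC box was searched as GGGCGG. The E-box was searched as CACGTG. The AP-1 motif was searched as TGANTCA. The TATA box was searched as TATAAA, and no matches overlapped.
Fbln1, chr15:85205699-85205948, plus strand: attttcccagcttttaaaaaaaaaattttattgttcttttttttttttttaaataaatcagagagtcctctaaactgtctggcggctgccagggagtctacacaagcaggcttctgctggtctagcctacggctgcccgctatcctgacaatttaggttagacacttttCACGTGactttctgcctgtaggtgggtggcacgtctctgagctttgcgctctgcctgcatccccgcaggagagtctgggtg
Fbln5, chr12:101819120-101819369, minus strand: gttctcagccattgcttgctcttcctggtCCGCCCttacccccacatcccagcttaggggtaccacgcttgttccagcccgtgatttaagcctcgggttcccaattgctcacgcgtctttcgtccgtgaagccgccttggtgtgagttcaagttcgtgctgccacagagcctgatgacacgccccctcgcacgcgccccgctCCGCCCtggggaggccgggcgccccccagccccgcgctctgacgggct
The Fbln1 window held 1 E-box and none of the other motifs, and 46.4% of its bases were G or C. The Fbln5 window held 2 GC boxes and none of the other motifs, and 65.2% of its bases were G or C. Over 32851 promoter windows of the same length, 32.7% held the GC box letters, 6.02% the E-box, 6.75% the AP-1 and 12.4% the TATA box letters. Each gene also has a second RefSeq start, whose window overlaps annotated exons and is not printed. The second Fbln1 window, from 85205758 to 85206007, overlaps the printed one. It held 1 GC box and the same E-box, and the second Fbln5 window held none of the 4 motifs. The printed windows shared no motif, while the GC box was in 1 window of each gene.

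Eln encodes tropoelastin, the soluble subunit that is crosslinked into the elastic core. Its level was 4.33, 3.62 and 6.06 FPKM in the 6 h libraries and 4.28, 3.65 and 2.74 FPKM in the 0 h libraries, against 298.4 FPKM in the Foxl1-Cre and 245 FPKM in the control library. Every GABA and taurine library was far below both genotype libraries, and the lower genotype value was 40.4 times the highest GABA and taurine value. The ratio of the means was 66.0-fold, lower in the GABA and taurine libraries. On the log2(FPKM + 1) scale the difference was -5.76, and only 0.282% of all genes tested had a lower one. Within a library, Eln ranked between 7596 and 9178 among all genes in the GABA and taurine set and at 273 and 352 in the Foxl1-Cre and control libraries.

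Fbn1 encodes fibrillin-1, the main protein of microfibrils. It stood at 63.5, 63.7 and 50.8 FPKM at 6 h and at 43.4, 51.4 and 62.8 FPKM at 0 h, against 168.4 FPKM in the Foxl1-Cre and 132.7 FPKM in the control library. The sets did not overlap, and the GABA and taurine mean of 55.9 FPKM was 0.372 times the genotype mean (log2 difference -1.42). Mfap5, also called MAGP-2, encodes a small glycoprotein that binds fibrillin. It stood at 66.4, 74.4 and 69.1 FPKM at 6 h and at 70.5, 76.0 and 64.1 FPKM at 0 h, against 291.1 FPKM in the Foxl1-Cre and 246.5 FPKM in the control library. Its GABA and taurine mean was 0.261 times the genotype mean (log2 difference -1.92), so the 2 microfibril genes were lower by a smaller factor than elastin. Per library, Fbn1 was 8.37 to 22.9 times the Eln level in the GABA and taurine set, against 0.564 times in the Foxl1-Cre and 0.542 times in the control library. This ratio within a library does not depend on the scaling between libraries, and it differed between the sets.

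The 3 fibulins did not lie the same way. Fbln1, whose product binds fibronectin and is found in elastic fibres and basement membranes, stood at 18.2, 22.3 and 20.4 FPKM at 6 h and at 15.7, 21.2 and 15.03 FPKM at 0 h, against 775.1 FPKM in the Foxl1-Cre and 733.8 FPKM in the control library. It was 40.1-fold lower in the GABA and taurine set by the ratio of means (log2 difference -5.27). In the Foxl1-Cre and control libraries Fbln1 was the highest of the 10 genes and ranked 78 and 85 among all genes, while its rank in the GABA and taurine libraries lay between 4130 and 5204. Fbln5, which binds elastin, integrins and Loxl1 and is needed for fibre assembly in mice, stood at 3.81, 4.69 and 4.69 FPKM at 6 h and at 2.82, 3.74 and 3.04 FPKM at 0 h, against 110.7 FPKM in the Foxl1-Cre and 106.2 FPKM in the control library. It was 28.5-fold lower in the GABA and taurine set (log2 difference -4.53). Eln and Fbln5 were the lowest of the 10 genes there, and their ranges overlapped.

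Fbln2, which binds fibrillin and elastin, ran the other way. It stood at 862, 897.7 and 798.2 FPKM at 6 h and at 818.9, 821.8 and 844.9 FPKM at 0 h, against 379.7 FPKM in the Foxl1-Cre and 300.7 FPKM in the control library. Every GABA and taurine value was above both genotype values, with a ratio of means of 2.47 (log2 difference 1.31). Fbln2 was the highest of the 10 genes in all 6 GABA and taurine libraries. The level of Fbln2 was 38.7 to 56.2 times that of Fbln1 in the GABA and taurine libraries, against 0.49 times in the Foxl1-Cre and 0.41 times in the control library. Of the summed FPKM of 6 fibulin genes (Fbln1, Fbln2, Fbln5, Fbln7, Efemp1 and Efemp2), Fbln2 made up 73.9% to 77.2% in the GABA and taurine libraries, against 19.2% in the Foxl1-Cre and 16.01% in the control library. Fbln1 made up 1.34% to 1.91% there, against 39.1% in both genotype libraries. The sum itself was 1074 to 1195 FPKM in the GABA and taurine libraries, against 1982 FPKM in the Foxl1-Cre and 1878 FPKM in the control library. These shares and ratios were chosen after the values were seen.

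Emilin1 encodes a glycoprotein at the border between elastin and microfibrils that also restrains TGF-β processing in mice. It stood at 18.8, 21.1 and 17.98 FPKM at 6 h and at 23.1, 19.1 and 21.7 FPKM at 0 h, against 239.1 FPKM in the Foxl1-Cre and 213 FPKM in the control library. The sets did not overlap, and the ratio of means was 11.1-fold, lower in the GABA and taurine libraries (log2 difference -3.42).

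The crosslinking enzymes also lay in both directions. Lox, which encodes lysyl oxidase, stood at 200.4, 194.3 and 200.9 FPKM at 6 h and at 158.2, 178.8 and 203.7 FPKM at 0 h, against 35.5 FPKM in the Foxl1-Cre and 27.2 FPKM in the control library. All GABA and taurine values were above both genotype values, the lowest of them by 4.46-fold, and the ratio of means was 6.04 (log2 difference 2.56). Ranked from the most positive difference, Lox came 280th of the 12043 genes. Loxl1, the family member most closely tied to elastin in mice, stood at 60.6, 60.4 and 59.7 FPKM at 6 h and at 58.8, 60.2 and 50.7 FPKM at 0 h, against 111.3 FPKM in the Foxl1-Cre and 103.2 FPKM in the control library. Its sets did not overlap, but the log2 difference of -0.87 was the only one of the 10 under 2-fold. Loxl2, known for crosslinking basement membrane collagen, stood at 20.7, 20.4 and 21.9 FPKM at 6 h and at 25.6, 20.7 and 17.0 FPKM at 0 h, against 88.5 FPKM in the Foxl1-Cre and 90.4 FPKM in the control library. It was 4.25-fold lower in the GABA and taurine set (log2 difference -2.05).

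The summed level of the 5 lysyl oxidase genes had nearby values in both sets, at 272.9 to 313.6 FPKM in the GABA and taurine libraries, 286.5 FPKM in the Foxl1-Cre and 265.1 FPKM in the control library. Its makeup differed. Lox made up 58.0% to 67.0% of the sum in the GABA and taurine libraries, against 12.4% in the Foxl1-Cre and 10.3% in the control library. Loxl2 made up 5.6% to 9.38% there, against 30.9% in the Foxl1-Cre and 34.1% in the control library, and Loxl1 made up 16.7% to 21.5% there, against 38.8% and 38.9%. The ratio of Lox to Eln within a library was 33.1 to 74.3 in the GABA and taurine set, 0.119 in the Foxl1-Cre and 0.111 in the control library.

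**Figure D2:**
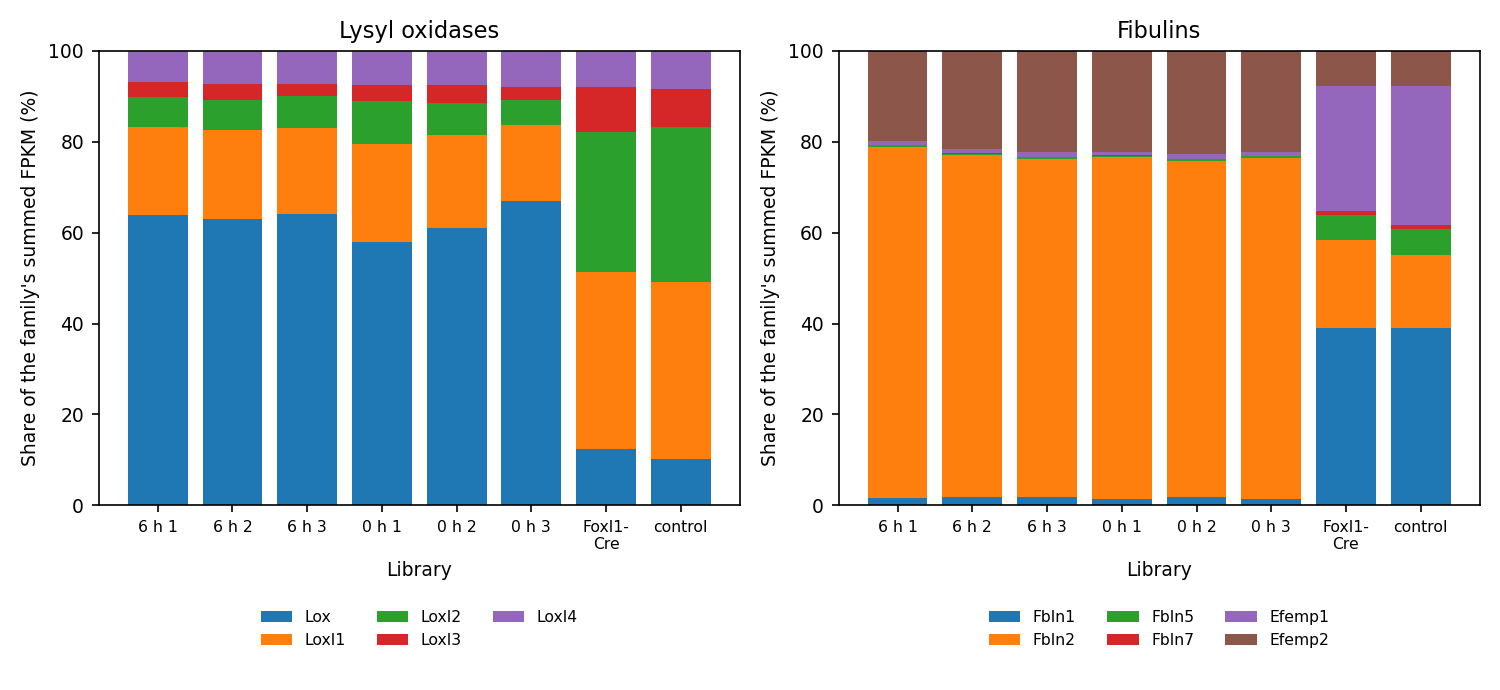
Share of the summed FPKM of the lysyl oxidase genes (left) and the fibulin genes (right) taken by each gene, in percent, with 1 bar per library. Lox takes 58.0% to 67.0% of the left bars and Fbln2 takes 73.9% to 77.2% of the right bars in the GABA and taurine libraries, while Loxl1, Loxl2, Fbln1 and Efemp1 take most of the bars of the 2 genotype libraries.

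Within each set the order of the 10 levels was partly resolved. In the genotype libraries the means ran from Fbln1 (754.4 FPKM) through Fbln2 (340.2), Eln (271.7), Mfap5 (268.8), Emilin1 (226), Fbn1 (150.5), Fbln5 (108.4), Loxl1 (107.2) and Loxl2 (89.4) to Lox (31.4 FPKM). There the ranges of Eln and Mfap5 overlapped, as did those of Fbln5 and Loxl1, and the other neighbours did not. In the GABA and taurine libraries the means ran from Fbln2 (840.6 FPKM) through Lox (189.4), Mfap5 (70.1), Loxl1 (58.4), Fbn1 (55.9), Loxl2 (21.1), Emilin1 (20.3), Fbln1 (18.8) and Eln (4.11) to Fbln5 (3.8 FPKM). There Loxl1 overlapped Fbn1, Loxl2 overlapped Emilin1, Emilin1 overlapped Fbln1 and Eln overlapped Fbln5. Lox was thus the lowest of the 10 in the genotype libraries and the second highest in the GABA and taurine libraries.

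**Figure D3:**
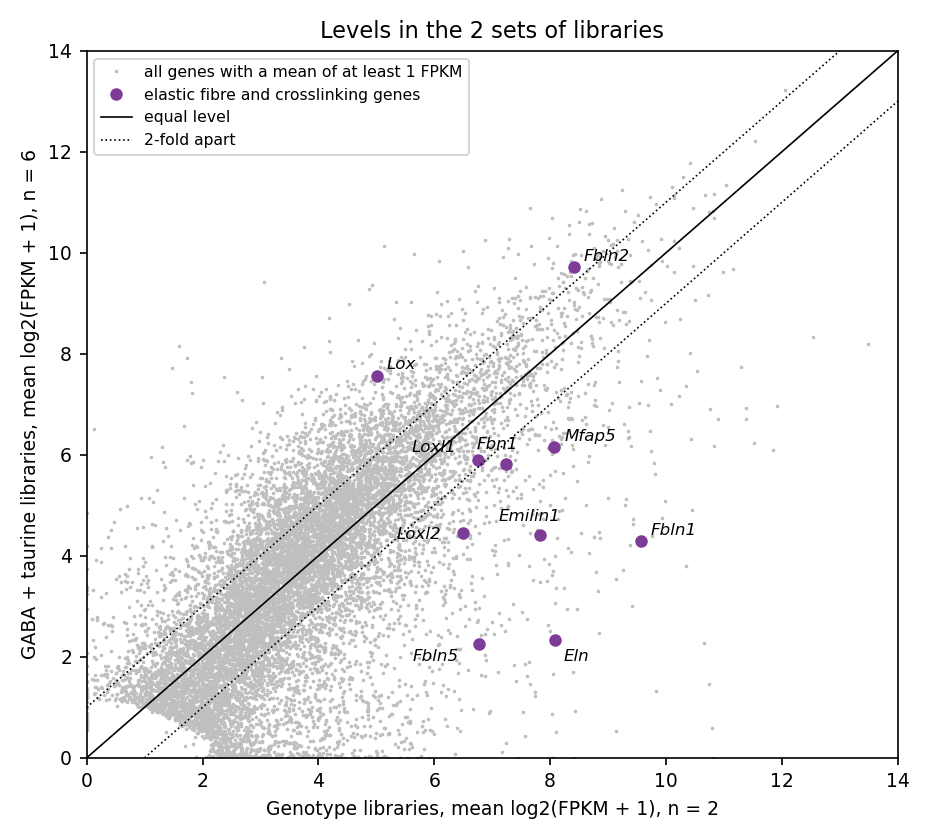
Mean log2(FPKM + 1) of each gene in the 6 GABA and taurine libraries (vertical axis) against the mean in the 2 genotype libraries (horizontal axis), for 12043 genes in grey and the 10 elastic fibre and crosslinking genes in purple. Lox and Fbln2 lie above the upper 2-fold line, Loxl1 lies between the lines, and the other 7 lie below the lower one, Eln and Fbln1 furthest.

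Other elastic fibre genes were also mostly lower in the GABA and taurine set. Of 21 listed genes outside the 10, 18 averaged 1 FPKM or more, and of these 12 were at least 2-fold lower without overlap and 1 was higher, Emilin2 (60.7 to 75.4 FPKM, against 23.5 FPKM in the Foxl1-Cre and 22.8 FPKM in the control library). By this rule 21.9% of all genes were lower and 19.8% higher. The median log2 difference of the 18 was -2.27, beside 0.05 over all genes. Efemp1, which encodes fibulin-3, stood at 8.14 to 12.2 FPKM in the GABA and taurine libraries, against 548.4 FPKM in the Foxl1-Cre and 577 FPKM in the control library. Mfap2, a microfibril glycoprotein gene like Mfap5, stood at 1.59 to 4.56 FPKM there, against 169.3 and 160.1 FPKM. Mfap4, which encodes a glycoprotein that binds tropoelastin, stood at 13.3 to 21.7 FPKM there, against 659.5 and 662.1 FPKM. Tnxb, the tenascin-X gene, stood at 2.03 to 3.11 FPKM there, against 98.5 and 90.3 FPKM.

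Among 20 other genes of crosslinking and its helpers, 7 were at least 2-fold lower and 2 at least 2-fold higher without overlap, with a median log2 difference of -0.70. Of all genes, 41.7% met this rule, 21.9% as lower and 19.8% as higher. Postn, a matricellular gene, stood at 72.9 to 88.6 FPKM in the GABA and taurine libraries, against 664.3 FPKM in the Foxl1-Cre and 633.1 FPKM in the control library. Pcolce, an enhancer of procollagen C-proteinase, stood at 73.8 to 86.4 FPKM there, against 673.5 and 634.6 FPKM, and the lysyl hydroxylase gene Plod1 at 21.0 to 26.6 FPKM, against 128.8 and 103.9 FPKM. The proteinase gene Tll1 was higher there, at 5.5 to 6.52 FPKM, against 0.235 and 0.504 FPKM. Bmp1, whose product cleaves the lysyl oxidase precursor, stood at 39.5 to 50.2 FPKM there, against 99.2 and 94.7 FPKM.

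Latent TGF-β binding, ligand and receptor genes lay in both directions, with 4 of 12 at least 2-fold lower and 3 at least 2-fold higher without overlap (median log2 difference -0.50). By this rule 21.9% of all genes were lower and 19.8% higher. Ltbp4, which promotes elastic fibre assembly with fibulins in mice, stood at 60.8 to 69.0 FPKM in the GABA and taurine libraries, against 878.7 FPKM in the Foxl1-Cre and 822.3 FPKM in the control library. Ltbp2 lay the other way at 56.3 to 68.6 FPKM, against 2.57 and 2.32 FPKM. Tgfbr2, a TGF-β receptor gene, stood at 32.0 to 36.9 FPKM, against 181.1 and 163.2 FPKM. Of 19 genes of elastin degradation and elastin-binding receptors, 10 were at least 2-fold lower and 4 at least 2-fold higher (median log2 difference -1.11). Timp1, an inhibitor of matrix proteases, stood at 1071 to 1179 FPKM there, against 35.9 and 32.6 FPKM, and the integrin gene Itga5 at 332 to 382.2 FPKM, against 61.6 and 41.3 FPKM. The gelatinase gene Mmp2 stood at 80.9 to 93.3 FPKM there, against 839.3 and 856.6 FPKM, and the cathepsin gene Ctss at 0 to 0.644 FPKM, against 18.3 and 12.8 FPKM. Of 13 collagen genes, 12 were lower by this rule and none was higher (median log2 difference -2.99). Col6a1 stood at 25.3 to 31.6 FPKM there, against 1470 and 1313 FPKM, and Col6a2 at 18.4 to 22.1 FPKM, against 922.5 and 803.3 FPKM. Col4a5 stood at 0.757 to 1.28 FPKM there, against 87.2 and 87.5 FPKM, and Col4a6 at 0 to 0.049 FPKM, against 35.0 and 33.1 FPKM. Col4a5 and Col4a6 passed the filter only through the genotype libraries, as did 3 of the 12 lower elastic fibre genes and 1 of the 10 lower degradation and receptor genes, and their log2 differences depend on the pseudocount.

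Markers of other cells moved with the sets too. The summed level of 10 smooth muscle and myofibroblast markers was 1148 to 1257 FPKM at 6 h and 1135 to 1194 FPKM at 0 h, against 830.2 FPKM in the Foxl1-Cre and 694.8 FPKM in the control library. None of them was at 0 throughout the GABA and taurine libraries, and 3 of 9 measured ones were at least 2-fold lower and 2 at least 2-fold higher. For these and the next marker counts, 21.9% of all genes were lower and 19.8% higher by the same rule. Myh11, a defining smooth muscle marker and 1 of the 3 lower ones, stood at 0.291 to 1.18 FPKM in the GABA and taurine libraries, against 14.9 and 15.8 FPKM. The 2 higher ones were Actg2, at 35.5 to 47.4 FPKM against 10.2 and 15.8 FPKM, and Smtn, at 160.7 to 194.9 FPKM against 80.2 and 69.0 FPKM. Most of each smooth muscle sum was Acta2 and Tagln, and neither was 2-fold apart. Acta2 stood at 489.3 to 549.8 FPKM, against 381.6 and 304.8 FPKM, and Tagln at 405.1 to 467.5 FPKM, against 321 and 263.7 FPKM. The median log2 difference of the 9 measured markers was -0.68, the other way from the sum. Markers of Foxl1-positive subepithelial cells summed to 497.7 to 551.6 FPKM at 6 h and 414.6 to 454.1 FPKM at 0 h, against 1006 and 886.2 FPKM, and 8 of 10 were at least 2-fold lower. Most of each GABA and taurine sum was F3, at 393 to 523.4 FPKM, against 451.3 and 368.7 FPKM, with overlap between the sets. The sum therefore says little about the other markers of this list. Markers of Pi16- or CD81-positive fibroblasts summed to 792.1 to 850.9 FPKM at 6 h and 761.6 to 819.4 FPKM at 0 h, against 1981 and 1791 FPKM, with 7 of 9 at least 2-fold lower and 1 higher. The higher one was Anxa3, at 211.5 to 234.6 FPKM, against 71.1 and 43.2 FPKM. Cd81 itself overlapped between the sets, at 213.1 to 241.6 FPKM, against 259.2 and 232 FPKM. Pericyte markers summed to 49.5 to 58.2 FPKM at 6 h and 47.6 to 50.8 FPKM at 0 h, against 144.3 and 142.5 FPKM, with Higd1b at 0 throughout. Endothelial markers summed to 11.9 to 17.4 FPKM at 6 h and 9.46 to 13.9 FPKM at 0 h, against 45.6 and 68.7 FPKM, with Tie1 at 0 throughout. Leukocyte markers summed to 7.82 to 11.7 FPKM at 6 h and 4.6 to 16.2 FPKM at 0 h, against 241.4 and 207.5 FPKM. Epithelial markers, of cells that the gate should have removed, summed to 3.91 to 6.09 FPKM at 6 h and 1.86 to 2.62 FPKM at 0 h, against 855 FPKM in the Foxl1-Cre and 85.1 FPKM in the control library. All 7 measured ones were at least 2-fold lower, and Epcam stood at 0 to 0.48 FPKM, against 14.6 and 4.18 FPKM. Enteric glia and mesothelium markers summed to less than 9 FPKM in every library. Several of these counts were partly fixed by the filter, since genes under 1 FPKM in the GABA and taurine mean passed it only through the genotype libraries. That held for 6 of the 7 lower epithelial markers, 5 of the 8 lower markers of Foxl1-positive cells, 1 of the 7 lower Pi16 or CD81 markers and 2 of the 3 lower smooth muscle markers. The part of these cells in the levels of the 10 genes was not tested.

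The genes whose profiles over the 8 libraries lay nearest to those of 3 members were found by the root mean square distance of centred log2(FPKM + 1) values among 6631 other genes averaging 10 FPKM or more. This is a description, and the distance is set mainly by the difference between the sets. Nearest to Eln were Itih5 (distance 0.17), Tmem119 (0.18) and Fos (0.21), where the median gene lay at 2.73. Itih5 stood at 0.326 to 0.763 FPKM in the GABA and taurine libraries, against 77.5 FPKM in the Foxl1-Cre and 69.7 FPKM in the control library. It passed the filter only through the genotype libraries, and its distance depends on the pseudocount. Fos stood at 54.5 to 74.1 FPKM in the GABA and taurine libraries, against 3923 FPKM in the Foxl1-Cre and 3478 FPKM in the control library. Nearest to Fbn1 were Slc37a3 (0.10), Wdr6 (0.11) and Gbp2 (0.12), with the median gene at 0.90. Nearest to Lox were Tfrc, the transferrin receptor gene (0.054), Heatr1 (0.079) and Msn (0.08), with the median gene at 0.91.

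After 6 h of GABA and taurine, none of the 10 genes passed the test against 0 h. In the limma fit of log2(FPKM + 1), 0.550% of 10910 genes had an adjusted p under 0.05 (0.238% as higher), and 0 of the 10 did. At an unadjusted p under 0.05, 1 of the 10 was counted, Fbln5, where 9.38% of all genes were. Of the 10 differences 8 were above 0, where 49.5% of all genes were, and their median was 0.12, beside -0.002 over all genes. The 95% intervals were widest for the low genes Eln and Fbln5, with upper ends of 0.71 and 0.69 on the log2 scale.

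Fbln5 was the only 1 of the 10 whose 6 h and 0 h values did not overlap, where 15.3% of all genes had none, 7.25% with 6 h higher. It averaged 4.4 ± 0.508 FPKM at 6 h and 3.2 ± 0.483 FPKM at 0 h (SD, n = 3 each). Its log2 difference was 0.36 (95% interval 0.04 to 0.69, limma adjusted p = 0.47), and an exact two-sided permutation test gave p = 0.1, the smallest that 3 against 3 libraries allow. With a pseudocount of 5 in place of 1 the log2 difference was 0.20 for Fbln5 and 0.17 for Eln. Eln averaged 4.67 ± 1.26 FPKM at 6 h and 3.56 ± 0.773 FPKM at 0 h (log2 difference 0.31, interval -0.09 to 0.71, limma adjusted p = 0.657). The 6 h replicate 3 library, at 6.06 FPKM, was its highest, and without that library the log2 difference was 0.14. Without 0 h replicate 3, its lowest, it was 0.17. Fbln1 averaged 20.3 ± 2.05 FPKM at 6 h and 17.3 ± 3.42 FPKM at 0 h (log2 difference 0.23, interval -0.04 to 0.50, limma adjusted p = 0.619). The ranges of Eln and Fbln1 at the 2 times overlapped.

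Among the other genes, Fbn1 averaged 59.3 ± 7.42 FPKM at 6 h and 52.5 ± 9.77 FPKM at 0 h (log2 difference 0.18, interval -0.08 to 0.44). Lox averaged 198.5 ± 3.68 FPKM at 6 h and 180.2 ± 22.8 FPKM at 0 h (log2 difference 0.15, interval -0.02 to 0.31), and the highest single value was at 0 h. Loxl1 averaged 60.2 ± 0.491 and 56.6 ± 5.15 FPKM at 6 h and 0 h (log2 difference 0.09, interval -0.06 to 0.25). Emilin1 averaged 19.3 ± 1.64 FPKM at 6 h and 21.3 ± 2.02 FPKM at 0 h, the only difference below -0.1 (log2 difference -0.13, interval -0.34 to 0.08). Fbln2, Loxl2 and Mfap5 had log2 differences of 0.04, 0.01 and -0.003, with intervals from -0.07 to 0.15, from -0.25 to 0.27 and from -0.16 to 0.16. For these 7 genes limma gave adjusted p-values of 0.603 to 0.992. At 0 h, replicate 3 was the lowest library for Eln, Loxl1, Loxl2, Fbln1 and Mfap5 and the highest for Fbn1, Lox and Fbln2. This did not set it apart, since among 3 libraries each is often at an end of the range. At 6 h, replicate 2 was the highest for 5 of the 10 and the lowest for 3, and replicate 3 the highest for 4 and the lowest for 4. Without 0 h replicate 3 the log2 differences of Fbn1, Lox, Fbln1 and Loxl1 were 0.32, 0.24, 0.14 and 0.02. Without 0 h replicate 1 those of Fbn1, Lox and Emilin1 were 0.05, 0.06 and -0.07. Without 0 h replicate 2 Fbln1 stood at 0.38 and Emilin1 at -0.21. Without 6 h replicate 3 Fbn1, Fbln2 and Emilin1 stood at 0.29, 0.09 and -0.09, and without 6 h replicate 2 Fbln2 stood at 0.002.

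**Figure D4:**
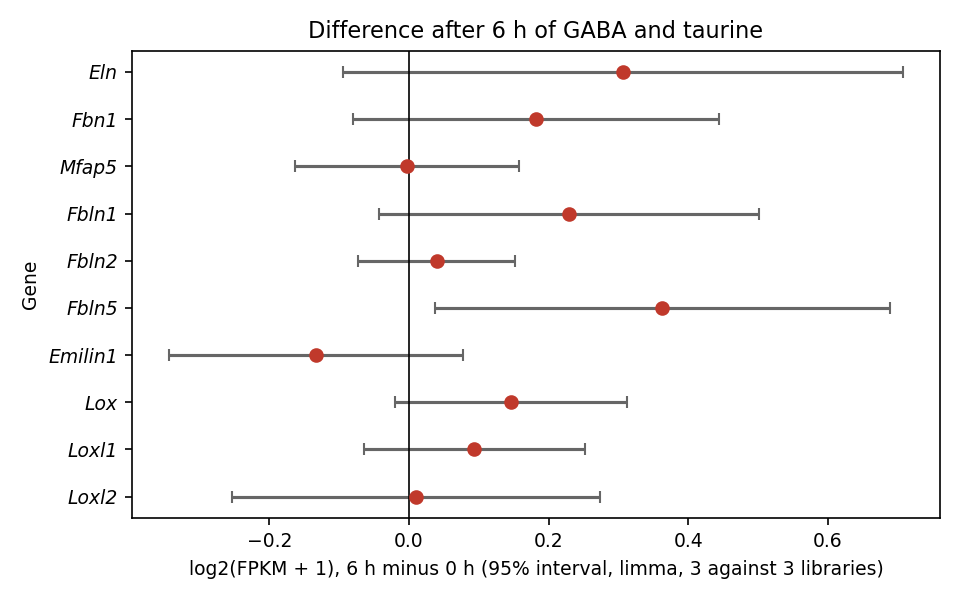
Difference in log2(FPKM + 1) between 6 h and 0 h for each gene, with the 95% interval from limma over 3 against 3 libraries. The interval of Fbln5 lies above 0, from 0.04 to 0.69, and those of the other 9 include 0.

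Among related lists in the time comparison, 1 gene passed, Timp3. No member of the lists of other elastic fibre genes (15 tested), crosslinking helpers (20), TGF-β genes (12) or collagens (11) passed the limma test at an adjusted p under 0.05. The median log2 differences of these lists were 0.05, 0.01, 0.04 and 0.03. Of the first list the smallest p-values were those of the fibrinogen-like gene Fgl2 (19.2 ± 1.41 FPKM at 6 h and 13.95 ± 0.866 FPKM at 0 h, limma adjusted p = 0.0804) and Mfap2 (3.25 ± 1.18 and 2.08 ± 0.448 FPKM at 6 h and 0 h, limma adjusted p = 0.546). Bmp1 stood at 47.5 ± 2.37 FPKM at 6 h and 41.2 ± 1.84 FPKM at 0 h (limma adjusted p = 0.347), and the copper transporter gene Slc31a1 at 26.6 ± 1.08 and 29.9 ± 2.31 FPKM at 6 h and 0 h (limma adjusted p = 0.584). Ctgf and Tgfbr1 had limma adjusted p-values of 0.125 and 0.451, and Col3a1 and Col5a3 of 0.135 and 0.482. Of 18 tested genes of elastin degradation and elastin-binding receptors, 1 rose, the protease inhibitor gene Timp3, at 84.2 ± 5.93 FPKM at 6 h and 64.2 ± 3.78 FPKM at 0 h (log2 difference 0.39, limma adjusted p = 0.0335). Its call was lost in 8 of 13 other fits, among them those without the trend (adjusted p = 0.345), with no filter (adjusted p = 0.314) and without any 1 library other than 0 h replicate 3, while its difference stayed between 0.33 and 0.42. The epithelial marker Krt8, at 2.06 ± 0.285 FPKM at 6 h and 0.396 ± 0.291 FPKM at 0 h, was also called higher (limma adjusted p = 0.0319). It passed the filter of 1 FPKM only through the 6 h libraries, so its call rests in part on that filter. Its log2 difference was 0.39 with a pseudocount of 5 and 2.26 with 0.1. The part of Krt8 in the other values was not tested. That call too was lost in 8 of 12 other fits, with adjusted p-values up to 0.244, including each fit that left out 1 library other than 0 h replicate 3.

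With Foxl1-Cre, 9 of the 10 genes had a higher value than in the control library, all by less than 1.31-fold. With 1 library per genotype there was no test, and none of the 10 reached 2-fold, where 3.59% of all 14949 genes did. A difference above 0 was held by 55.0% of all genes and by 68.2% of genes averaging 10 FPKM or more, so the direction was the common one. The median log2 difference of the 10 genes was 0.20, beside 0.04 over all genes and 0.09 over the 3286 genes averaging 25 FPKM or more, a level that all 10 passed. Lox had the largest ratio at 1.3, followed by Fbn1 at 1.27, Fbln2 at 1.26, Eln at 1.22, Mfap5 at 1.18 and Emilin1 at 1.12. Loxl1, Fbln1 and Fbln5 stood at ratios of 1.08, 1.06 and 1.04, and Loxl2 at 0.98. The middle 90% of genes of at least 25 FPKM ran from -0.30 to 0.38 on the log2 scale, and all 10 fell inside it.

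**Figure D5:**
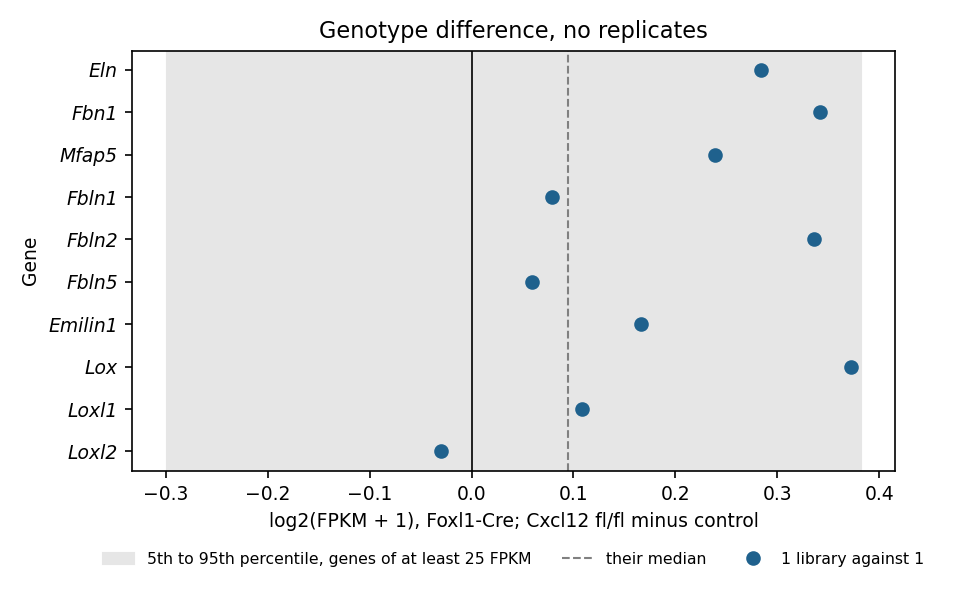
Difference in log2(FPKM + 1) of each gene between the Foxl1-Cre and the control library, with 1 library each. The grey band is the 5th to 95th percentile of the 3286 genes averaging 25 FPKM or more (-0.30 to 0.38) and the dashed line is their median (0.09), and all 10 points lie inside the band.

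In the related lists no gene of the other elastic fibre, crosslinking, TGF-β, degradation or collagen lists reached 2-fold between the genotype libraries. Higher values were held by 12 of 20 elastic fibre genes, 17 of 19 crosslinking genes, 11 of 12 TGF-β genes, 16 of 19 degradation and receptor genes and 12 of 13 collagens. The same was true of 55.0% of all genes and of 68.2% of genes averaging 10 FPKM or more. Epithelial markers moved with this comparison. All 9 measured epithelial markers were higher in the Foxl1-Cre library, 6 of them at least 2-fold, and the 10 listed ones summed to 855 FPKM there against 85.1 FPKM in the control library. Endothelial markers summed to 45.6 FPKM against 68.7 FPKM in the control library, with Kdr, Emcn and Egfl7 at least 2-fold lower. Smooth muscle markers summed to 830.2 FPKM against 694.8 FPKM in the control library, with none at least 2-fold apart. Only 4 of the 9 measured ones were higher, and their median log2 difference was -0.075. The sum was mostly Acta2 (381.6 against 304.8 FPKM) and Tagln (321 against 263.7 FPKM), so it does not give the direction of the list. The part of these cells in the differences of the 10 genes was not tested.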

How the data were processed

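RNA from 8 libraries was made into full-length cDNA with a SMART-Seq HT kit and into libraries with Nextera XT, per the labels' protocols. The authors deposited 1 FPKM value per gene symbol and library, per the file headers. Cuffdiff 2.2.1, SAMtools 0.1.18, Bowtie2 2.2.8 and TopHat2 2.1.1 are listed, with the build mm10, in the submitters' processing notes. No source used here gives the annotation, the handling of multi-mapping reads or any scaling across libraries.

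From these values the contrast of 6 h against 0 h was taken on log2(FPKM + 1) by limma 3.58.1 (R 4.3.3, trend on) over genes averaging 1 FPKM or more, with Benjamini-Hochberg adjustment over all genes tested and a threshold of 0.05. The script was tested on simulated data. Exact two-sided permutation tests were run with SciPy 1.17.1. The genotype and set comparisons are differences without a test. Members, lists and alternatives were chosen with earlier results of these data known. From each pathway list, genes were named that passed the time test or had the 2 smallest p-values, or had the 4 largest differences without overlap between the sets; 1 gene that the rule names is not reported here. Emilin2 and Bmp1's set levels, and the marker genes named, were chosen after their values were seen. For marker lists, summed levels and the genes a result touched are given. The labels do not say what the replicate numbers mark, so they were left out of the main fit and used as a block only in an alternative one. Same-numbered 6 h and 0 h libraries did not deviate together (correlations across genes between -0.04 and 0.01). Over all pairs of libraries 2 genes of 1 FPKM or more held identical values. Promoter windows came from RefSeq (GRCm38.p6), where 5 of the 10 genes had an entry.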

Additional observations from a re-analysis of the deposited data

How the results depend on the processing

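In all 14 limma fits of the time comparison 0 of the 10 genes passed, and their lowest adjusted p over 138 gene fits was 0.146, that of Lox. The count of all genes passing went from 60 to 0 with no filter on low values and to 0 without the trend, and ranged from 2 to 115 with 1 library left out (115 without 0 h replicate 3, and 2 to 6 without 6 h replicate 1 or 2 or 0 h replicate 1 or 2). With the replicate block it was 23, and the block changed no call of the 10 genes. The numbers mark no stated pairing. With 1 library left out Loxl2 ranged from -0.13 to 0.15 and Mfap5 from -0.066 to 0.055, the only differences to change sign. The other 8 kept their sign but each except Fbln5 moved by over 1.5 times without at least 1 library. The calls of Timp3 and Krt8 were each lost in 8 alternatives, the replicate block included (adjusted p = 0.0716 and 0.0803). The median of the 10 time differences moved from 0.12 to 0.067 with a filter at 5 FPKM, which drops Eln and Fbln5. Between the sets 9 of 10 genes were at least 2-fold apart without overlap in all 14 settings. Their median of -1.98 became -1.86 with a pseudocount of 5 and -2.11 with median-ratio scaling, which moved the median of all genes by -0.11. It was -1.93 for 0 h and -1.93 for 6 h against the control library, and ran from -2.04 to -1.93 with 1 genotype library left out. The median genotype difference ran from 0.16 to 0.20. In each setting 9 genes were higher, but a pseudocount cannot change a direction, and a filter at 10 FPKM dropped none of the 10. Only median-ratio scaling could have changed that count. Depth is unknown, and Eln and Fbln5, at 2.74 to 6.06 FPKM in the time comparison, are the least precise.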
